A study of Mus musculus with 18 samples.

Results

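Glutathione transferases are the enzymes that join glutathione to reactive compounds. Levels of 10 of their genes were followed in a pair of mouse tumour cell lines after CRISPR targeting of Ncor1, which encodes a nuclear receptor corepressor. The genes were the rows of 2 deposited count tables, 32015 gene symbols each, whose symbol was Gstt1, Gstt2, Gstt3, Gsta4, Gstm1, Gstm2, Gstm5, Gstp1, Gsto1 or Mgst1. The 10 were selected on levels measured in these libraries, knockout and control alike, and which of those levels counted is not recorded. Their differences between groups and between lines are therefore given as a description, and nothing is read from how many of them a fit called. The 18 poly(A) RNA libraries comprised 9 of Hepa1-6, a mouse liver cancer line, and 9 of B16, a mouse melanoma line. Per line, the guide RNAs sgNcor1-1 and sgNcor1-2, both labelled Ncor1 knockout, had 3 libraries each, and the guide sgCtrl, labelled WT, had 3. The labels give no further allele, agent or time, and do not say whether a knockout is 1 clone or a pool of edited cells, nor whether both knockouts of a line share a parent. Whether replicate libraries were grown as separate cultures is not stated, so p-values reflect library-to-library spread only, possibly of technical origin.

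The soluble enzymes fall into classes, of which theta (Gstt1, Gstt2, Gstt3), alpha (Gsta4), mu (Gstm1, Gstm2, Gstm5), pi (Gstp1) and omega (Gsto1) are described here. Mgst1 encodes a microsomal transferase of a separate, membrane-bound family. Most members add glutathione to electrophiles such as drug metabolites and products of lipid oxidation, and the conjugates leave the cell through transporters. The liver is rich in these enzymes, and the transcription factor NRF2 drives several of them under oxidative stress.

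The theta genes lie beside each other on the minus strand of chromosome 10 in the mouse build GRCm38 (mm10). Gstt3 spans chr10:75774117-75781422, Gstt1 chr10:75783813-75798584, Gstt4 chr10:75814943-75822566 and Gstt2 chr10:75831842-75837419. Gstt2 is the member with the widest gap between knockout and control in Hepa1-6, and its reads have to be told from those of its neighbours. Over the aligned coding sequences of the GENCODE transcripts of that build, Gstt2 was 60.3% identical to Gstt1, 62.2% to Gstt3 and 58.4% to Gstt4. Of all 50-base windows of the Gstt2 transcript, 1.22% occurred in another gene, and its deposited count was whole in all 18 libraries. The share was 0% for Gstt1, Gsta4, Gsto1 and Mgst1, 26% for Gstt3, whose exons overlap those of Gm20441, and 9.36% to 23.1% for the mu genes. It was 62.3% for Gstp1, whose coding sequence is 98.1% identical to that of Gstp2, so counts of that pair are uncertain.

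Libraries held 17689324 to 30819681 counts in Hepa1-6 and 15663964 to 25263744 in B16. Ncor1, the targeted gene, averaged 168.2 ± 34.2 CPM with sgNcor1-1 and 158.3 ± 24.3 CPM with sgNcor1-2 in Hepa1-6, against 250.5 ± 25.1 CPM with sgCtrl (SD, n = 3 each). CPM are read counts scaled to a common library size. In B16 it averaged 300.6 ± 64.3 and 296.7 ± 58.1 CPM with the Ncor1 guides and 310.4 ± 27.1 CPM with sgCtrl. Neither difference passed edgeR's quasi-likelihood test (adjusted p = 0.223 in Hepa1-6 and 1 in B16), although with the replicate number as a block the Hepa1-6 value was -0.63 (adjusted p = 0.0453), and an RNA level does not show whether the reading frame was broken. Of 12 hepatocyte markers, 7 reached 1 CPM in Hepa1-6, with Alb at 162.6 CPM in knockout and 156.1 CPM in control libraries, Afp at 271.5 and 124.7 CPM and Apob at 82.8 and 52.0 CPM, while Apoa1, Apoa2, Ttr, Ahsg and Serpina1a stayed under 1 CPM. Summed hepatocyte markers overlapped between Hepa1-6 knockout (1110 to 1645 CPM) and control libraries (1049 to 1183 CPM). All 9 melanocyte markers reached 1 CPM in B16, with overlapping sums of 4900 to 18160 CPM in knockout and 5610 to 14400 CPM in control libraries. Dcn, a fibroblast marker, stood at 1125 CPM in knockout and 1259 CPM in control libraries of Hepa1-6. Pdgfra, another, stood at 9.06 and 19.7 CPM there, and Col1a1 at 0.473 and 0.825 CPM. The fibroblast markers Col1a2, Col3a1 and Lum and the leukocyte marker Ptprc were at or near 0 in Hepa1-6. In B16 knockout and control libraries Pdgfra stood at 16.4 and 16.1 CPM, Col1a1 at 10.7 and 8.67 CPM and Dcn at 1.37 and 2.90 CPM. Among macrophage and leukocyte markers, Cd68 stood at 56.1 CPM in knockout and 70.1 CPM in control libraries of Hepa1-6 and Csf1r at 1.65 and 1.5 CPM, with sums of 15.8 to 107 CPM and 34.0 to 97.9 CPM. The part of these markers in the results was not tested. The endothelial markers summed to at most 1.12 CPM in Hepa1-6 and 8.33 CPM in B16. In bulk RNA, fewer cells of a type and less RNA per cell cannot be told apart.

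Gstt2, which encodes a theta-class transferase, was nearly absent from the Hepa1-6 knockout libraries. It had 2, 2 and 0 counts with sgNcor1-1 and 1, 0 and 0 counts with sgNcor1-2, against 21, 26 and 32 counts with sgCtrl. Every knockout library lay below every control library, and 3 of the 6 held no read at all. A count of 0 allows a level of up to 0.11 to 0.147 CPM in those libraries (3 counts of the total, counting error only). The means were 0.0605 ± 0.0574 CPM with sgNcor1-1, 0.0105 ± 0.0182 CPM with sgNcor1-2 and 1.32 ± 0.258 CPM with sgCtrl (SD, n = 3 each). Per read sequenced, the knockout libraries together held 2.5% of the control level (exact 95% interval 0.791% to 6.09%, counting error only). The fitted log2 fold change was -5.31 (SE 0.690) for both guides together, -4.43 (SE 0.832) for sgNcor1-1 and -6.19 (SE 0.974) for sgNcor1-2. Within each replicate number the log2 ratio, with 0.5 CPM added, lay between -2.06 and -1.47 for the 6 pairs. With knockout levels this near 0, these ratios mostly follow the control level and the added 0.5 CPM. The gap was present in each number, although the numbers were not taken to pair control with knockout libraries. The control level itself was low, between 1.08 and 1.59 CPM. Of 9 members fitted, edgeR called 1, Gstt2, at an adjusted p under 0.05, where 0.201% of all genes were called; the gene was chosen on these values, so nothing is read from this. That call was lost in 6 of 9 fits that each left out 1 library, namely any control, the sgNcor1-1 library numbered 2, or the sgNcor1-2 library numbered 2 or 3. For neither guide alone did edgeR call a member, where 0.0482% (sgNcor1-1) and 0.0803% (sgNcor1-2) of all genes were called, while DESeq2 and the edgeR fit with a replicate block called Gstt2 for each guide. At an unadjusted p under 0.05 there were 3 of 9 members, Gstt2, Mgst1 and Gstm2, beside 11.1% of all genes, and nothing is read from this. The knockout libraries of 2 members, Gstt2 and Mgst1, did not overlap the controls, against 9.13% of all genes, and both lay below them, against 5.24% of all genes.

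**Figure D1:**
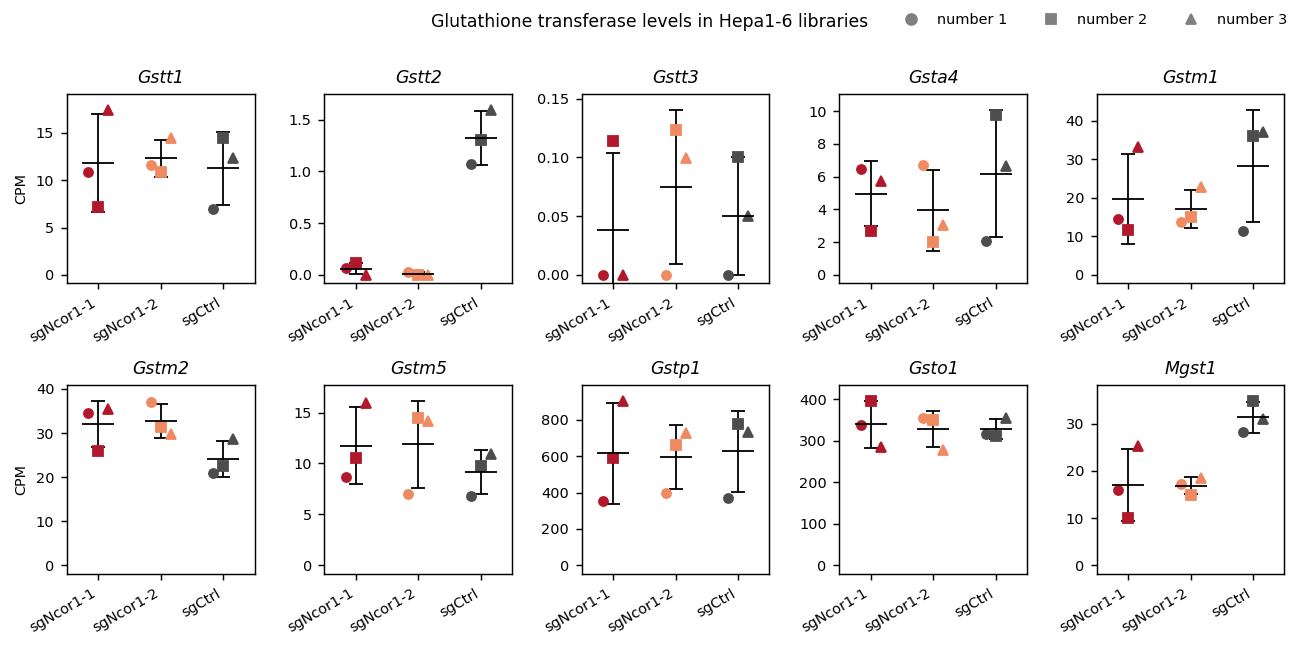
CPM (vertical axes, each with its own scale) of the 10 transferase genes in Hepa1-6 libraries with sgNcor1-1, sgNcor1-2 and sgCtrl; points are libraries, their shape the replicate number, bars the mean ± SD of 3 libraries. The knockout points of Gstt2 lie at 0 to 0.114 CPM, below all control points, and those of Mgst1 at 9.99 to 25.2 CPM against 28.2 to 34.8 CPM, while the other members overlap.

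In B16 the order was the opposite: Gstt2 was higher in every knockout library than in any control library. It stood at 16.0, 16.5 and 20.4 CPM with sgNcor1-1 and at 12.95, 18.8 and 19.3 CPM with sgNcor1-2, against 9.83, 9.29 and 12.2 CPM with sgCtrl. The smallest gap was between 12.95 CPM with sgNcor1-2 and 12.2 CPM with sgCtrl. The full separation depended on the scaling. On plain totals the knockout libraries numbered 1, at 12.70 CPM (sgNcor1-1) and 12.67 CPM (sgNcor1-2), lay below the control numbered 3, at 12.89 CPM. The TMM scaling factor of the sgNcor1-1 library numbered 1 was 0.7923, against 0.9783 and more in the other B16 libraries. The group means were 17.65 ± 2.36, 17.01 ± 3.52 and 10.42 ± 1.52 CPM (sgNcor1-1, sgNcor1-2 and sgCtrl, SD, n = 3 each). Both guides together gave 0.73 (SE 0.220) as log2 fold change, and the summed counts amounted to 159% of the control level per read sequenced (exact 95% interval 145% to 174%, counting error only). Log2 ratios within a replicate number ranged from 0.381 to 0.979 over the 6 pairs. None of the 9 members tested in B16 was called, where 0.0324% of all genes were called, and DESeq2 called none either. At an unadjusted p under 0.05 there were 2 members, Gstt2 and Gstm2, beside 2.36% of all genes. With the replicate number as a block the calls over all genes came to 48 instead of 4, and no member was among them. For neither guide alone did edgeR or DESeq2 call a member, where edgeR called 0.0081% of all genes for each. Gstt2 was the 1 tested member without overlap of knockout and control libraries, against 2.18% of all genes, and its knockout libraries lay above, against 0.81% of all genes.

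**Figure D2:**
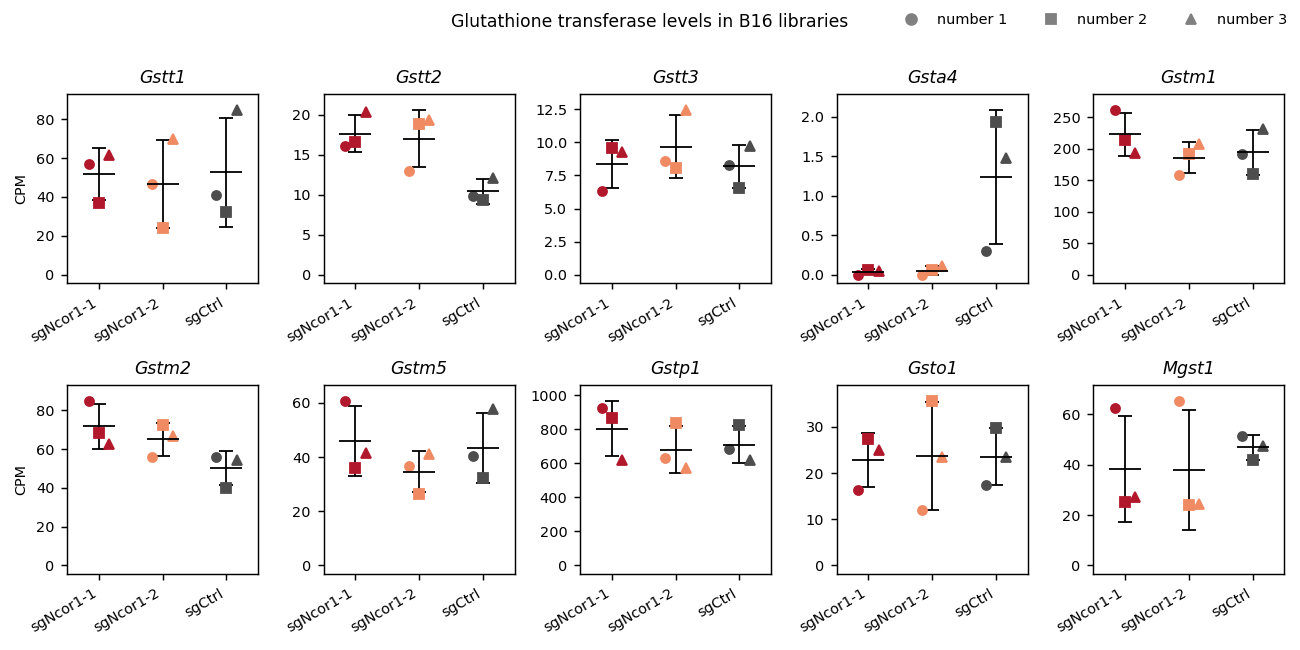
CPM (vertical axes, each with its own scale) of the same 10 genes in B16 libraries with sgNcor1-1, sgNcor1-2 and sgCtrl; symbols and bars are as in the Hepa1-6 plot. Gstt2 lies at 12.95 to 20.4 CPM in knockout and 9.29 to 12.2 CPM in control libraries, and Gsta4 at 0 to 0.106 CPM in knockout and 0.296 to 1.93 CPM in control libraries.

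The other theta genes did not share this pattern. Gstt1 averaged 11.8 ± 5.19 CPM with sgNcor1-1 and 12.3 ± 1.93 CPM with sgNcor1-2 in Hepa1-6, against 11.3 ± 3.90 CPM with sgCtrl, a log2 fold change of 0.10 (SE 0.325). In B16 it averaged 51.8 ± 13.2, 46.6 ± 22.8 and 52.6 ± 27.9 CPM in the same order of groups, a log2 fold change of -0.10 (SE 0.384). Knockout and control libraries overlapped in both lines. Gstt3 had 7 counts over 6 Hepa1-6 knockout libraries and 3 over the controls, too few to be fitted. In B16 it averaged 8.36 ± 1.81 CPM with sgNcor1-1 and 9.67 ± 2.38 CPM with sgNcor1-2, against 8.18 ± 1.61 CPM with sgCtrl (log2 fold change 0.14, SE 0.266). Gstt4, the nearest neighbour of Gstt2, was listed at 0 in all 18 libraries.

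Genes around Gstt2 were read from the same build, 8 on each side apart from members, of which 12 had a row in the tables. None of the 7 tested in Hepa1-6 or the 6 tested in B16 was called by edgeR, and DESeq2 called none. None had an unadjusted p under 0.05 either, where 11.1% (Hepa1-6) and 2.36% (B16) of all genes did. Their median log2 fold change was -0.352 in Hepa1-6 and -0.000492 in B16, beside 0.0208 and 0.0147 over all genes. Mif, a cytokine gene whose start site lies 22.8 kb from that of Gstt2, had log2 fold changes of -0.47 (SE 0.347) and 0.05 (SE 0.177) in Hepa1-6 and B16. Mmp11, a matrix metalloproteinase gene, had -0.70 (SE 0.314) and -0.05 (SE 0.292). For Chchd10, a mitochondrial protein gene, the values were -0.72 (SE 0.968) in Hepa1-6 and 0.46 (SE 0.316) in B16. The Hepa1-6 value averaged unlike libraries, in ascending order 1.72, 42.0 and 62.8 CPM with sgNcor1-1 and 1.92, 42.8 and 60.7 CPM with sgNcor1-2. With sgCtrl they stood at 40.05, 61.6 and 72.2 CPM. Ddt, a relative of Mif, had 0.23 (SE 0.239) and -0.20 (SE 0.234). Cabin1, a calcineurin inhibitor gene, had -0.35 (SE 0.255) and 0.23 (SE 0.263), and Smarcb1, a chromatin remodelling subunit, -0.15 (SE 0.197) and -0.18 (SE 0.492). Susd2, a membrane protein gene tested in Hepa1-6 alone, had 0.03 (SE 0.589), a value whose sign changed with the processing. No fitted value of a neighbour came near the -5.31 of Gstt2, although the lowest Chchd10 library of each Ncor1 guide was far below the controls.

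**Figure D3:**
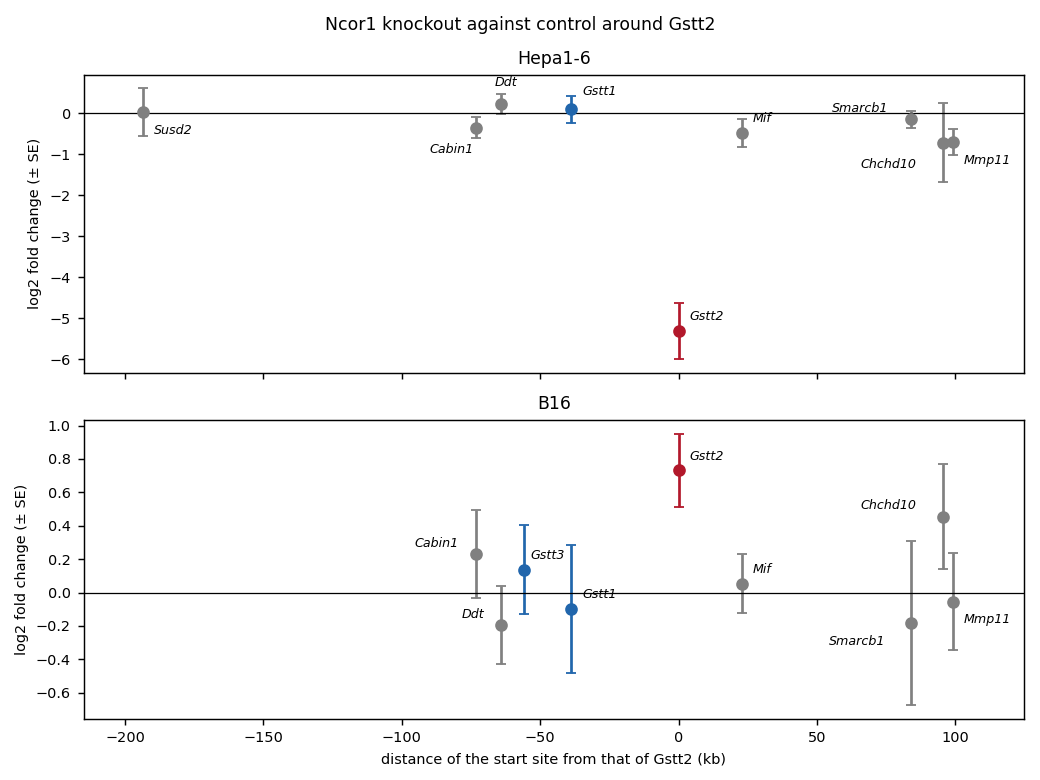
Log2 fold change of knockout over control ± SE (vertical axes, different scales) against the distance of each gene's start site from that of Gstt2 in kb, in Hepa1-6 above and B16 below; red is Gstt2, blue other theta genes, grey genes outside the family. Gstt2 stands at -5.31 in Hepa1-6 and 0.73 in B16, and every other gene lies between -0.72 and 0.46.

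Gsta4 encodes the alpha-class enzyme that clears 4-hydroxynonenal, a product of lipid peroxidation. In B16 it had 0, 1 and 1 counts with sgNcor1-1 and 0, 1 and 2 counts with sgNcor1-2, against 6, 32 and 33 counts with sgCtrl. All knockout libraries lay below the controls, although the control numbered 1, with 6 counts, was far below the other controls. The means were 0.0380 ± 0.0330, 0.0535 ± 0.0530 and 1.24 ± 0.844 CPM (sgNcor1-1, sgNcor1-2 and sgCtrl, SD, n = 3 each). Per read sequenced the knockout libraries held 3.71% of the control level (exact 95% interval 1.17% to 9.07%, counting error only), but the gene was below the filter on low counts and was not fitted in B16. In Hepa1-6 it was fitted and the groups overlapped, at 6.44, 2.68 and 5.75 CPM with sgNcor1-1 and 6.73, 2.02 and 3.04 CPM with sgNcor1-2, against 2.05, 9.76 and 6.66 CPM with sgCtrl. The control numbered 1 was again the lowest control. The log2 fold change was -0.47 (SE 0.530), and without the libraries numbered 1 it was -1.32 (SE 0.351).

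Mgst1, the microsomal transferase with peroxidase activity, was the other member whose Hepa1-6 knockout libraries all lay below the controls. It stood at 15.9, 9.99 and 25.2 CPM with sgNcor1-1 and at 17.2, 15.0 and 18.6 CPM with sgNcor1-2, against 28.2, 34.8 and 30.98 CPM with sgCtrl. The nearest values were 25.2 CPM in a knockout and 28.2 CPM in a control library. The log2 fold change was -0.88 (SE 0.258), with -0.88 (SE 0.309) for sgNcor1-1 and -0.89 (SE 0.309) for sgNcor1-2. In B16 Mgst1 stood at 62.7, 25.2 and 27.0 CPM with sgNcor1-1 and at 65.3, 24.0 and 24.3 CPM with sgNcor1-2, against 51.5, 41.8 and 47.3 CPM with sgCtrl. There the 2 knockout libraries numbered 1 lay above all controls and the 4 others below them. The B16 log2 fold change was -0.30 (SE 0.392), and within replicate numbers the log2 ratio was 0.281 and 0.339 in number 1 and between -0.948 and -0.719 in the others.

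The promoter of Mgst1 is shown because NRF2 acts through antioxidant response elements, whose core is TGACNNNGC, and the window holds one match, in capitals, which reads on the minus strand. It is RefSeq sequence of GRCm38.p6, 250 bases before to 50 after the start, plus strand of chr6:138140277-138140576.

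Mgst1 promoter: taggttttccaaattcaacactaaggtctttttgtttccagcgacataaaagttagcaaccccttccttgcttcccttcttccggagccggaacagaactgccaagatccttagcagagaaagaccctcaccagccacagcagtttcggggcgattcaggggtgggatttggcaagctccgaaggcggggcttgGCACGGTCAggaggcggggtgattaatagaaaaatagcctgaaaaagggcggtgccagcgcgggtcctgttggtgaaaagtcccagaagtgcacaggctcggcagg

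Among the 8 members whose promoter was in the table, Gstm5 also held the core on either strand, as did 12.5% of 27025 promoters. The nuclear receptor motif AGGTCA, searched on both strands, was in none of the 8 and in 16% of all promoters. A match describes letters in a window and not a bound site.

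Of the mu-class genes, Gstm2 leaned the same way in both lines. In Hepa1-6 it averaged 32.0 ± 5.26 CPM with sgNcor1-1 and 32.7 ± 3.82 CPM with sgNcor1-2, against 24.0 ± 4.10 CPM with sgCtrl, a log2 fold change of 0.43 (SE 0.186). In B16 it averaged 71.8 ± 11.6, 65.0 ± 8.46 and 50.1 ± 8.94 CPM, a log2 fold change of 0.44 (SE 0.182). Knockout and control ranges overlapped in each line, at 26.0 to 37.0 against 21.0 to 28.7 CPM in Hepa1-6 and 55.8 to 84.8 against 39.9 to 56.0 CPM in B16. Gstm1 averaged 19.8 ± 11.7 CPM with sgNcor1-1 and 17.1 ± 4.92 CPM with sgNcor1-2 in Hepa1-6, against 28.2 ± 14.5 CPM with sgCtrl (log2 fold change -0.62, SE 0.427). In B16 its log2 fold change was 0.07 (SE 0.180). Gstm5 had 0.37 (SE 0.316) in Hepa1-6 and -0.12 (SE 0.250) in B16, with all groups overlapping.

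The abundant pi and omega members differed little between knockout and control. Gstp1 averaged 615 ± 276 CPM with sgNcor1-1, 595 ± 173 CPM with sgNcor1-2 and 626 ± 223 CPM with sgCtrl in Hepa1-6 (log2 fold change -0.05, SE 0.340). In B16 its means were 803 ± 161, 678 ± 139 and 709 ± 107 CPM (0.06, SE 0.204). Gsto1, the omega enzyme that reduces dehydroascorbate, averaged 339 ± 55.5, 327 ± 43.4 and 328 ± 23.6 CPM in Hepa1-6 (0.02, SE 0.156). In B16 it averaged 22.8 ± 5.80, 23.7 ± 11.8 and 23.5 ± 6.22 CPM (-0.02, SE 0.338). With these standard errors, moderate changes of either gene would not have been detectable. In B16 they include spread between replicate numbers, for which the fit held no term.

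**Figure D4:**
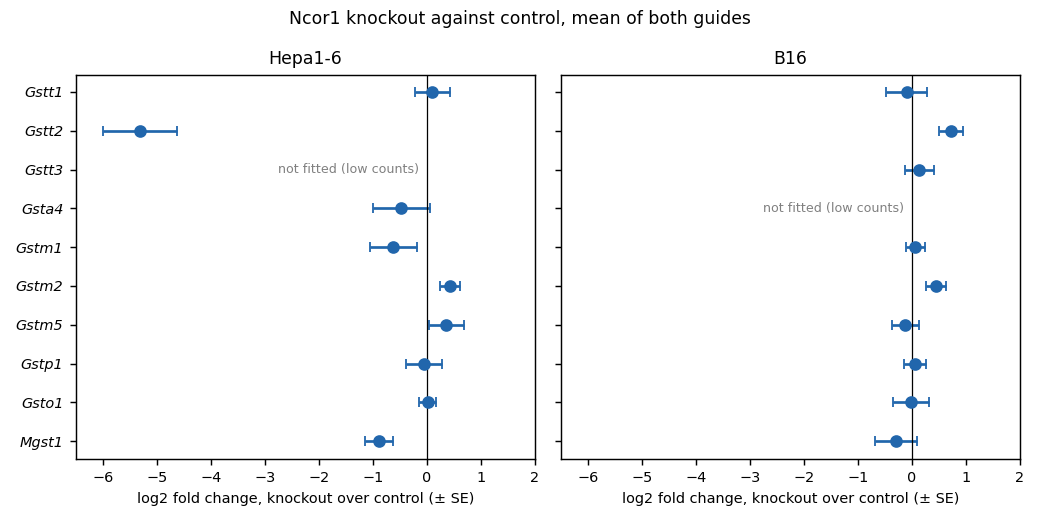
Log2 fold change of knockout (mean of both guides) over control ± SE on the horizontal axes, for the 10 genes in Hepa1-6 and in B16. Gstt2 lies at -5.31 in Hepa1-6 and 0.73 in B16, and every other fitted gene between -0.88 and 0.44.

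Set side by side, the Gstt2 effect differed between the lines by -6.01 (SE 0.615) on the log2 scale, as the Hepa1-6 effect minus the B16 effect. For Gsta4 the same difference was 4.11 (SE 1.03), with 5 counts in the B16 knockout libraries behind it. The other 8 members had differences between -0.67 and 0.50. By edgeR Gstt2 was the 1 of 10 members called, where 0.178% of all genes were called, and DESeq2 called Gsta4 as well. Nothing is read from these calls. The 2 Ncor1 guides were also set against each other. No gene was called between sgNcor1-1 and sgNcor1-2 in either line by edgeR (0% of all genes) or by DESeq2. At an unadjusted p under 0.05 there were 9 genes in Hepa1-6 (0.0722%) and 46 in B16 (0.373%), with 0 members among them. Deviations of same-numbered libraries of the guides correlated by 0.76 to 0.94 in Hepa1-6 and 0.53 to 0.64 in B16. The fits held no term for the number, so the lack of calls is not read as agreement of the guides. With the replicate number as a block edgeR called 0 genes in Hepa1-6. The guide difference of Gstt2 was 1.76 (SE 1.21) in Hepa1-6, where it rested on 4 counts with sgNcor1-1 against 1 with sgNcor1-2, and 0.05 (SE 0.245) in B16 (adjusted p = 1 in each).

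The summed level of the 10 members was alike across groups. In Hepa1-6 it was 1063 ± 266 CPM with sgNcor1-1, 1033 ± 149 CPM with sgNcor1-2 and 1076 ± 263 CPM with sgCtrl. In B16 it was 1249 ± 175, 1096 ± 99.3 and 1125 ± 24.4 CPM. Gstp1 made up most of it, 56.5% to 57.6% in the Hepa1-6 groups and 61.4% to 62.4% in the B16 groups. Gsto1 gave 32.1% to 34.1% in Hepa1-6 and 1.85% to 2.11% in B16. The mu genes gave 5.68% to 6.13% in Hepa1-6 and 25.3% to 26.6% in B16. The theta genes gave 1.14% to 1.23% in Hepa1-6 and 6.26% to 6.84% in B16. Gstt2 was thus a minor part of the summed RNA of the 10 members in both lines. Transferase genes outside the 10, such as Gstp2 with a mean of 222.9 CPM in B16 controls, are not in this sum.

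Per length of transcript, the Hepa1-6 control libraries were led by Gstp1 at 770 ± 274 CPM per kb and Gsto1 at 280 ± 19.5 CPM per kb. Mgst1 (27.1), Gstm2 (22.8), Gstm1 (22.1), Gstt1 (11.0), Gstm5 (9.78) and Gsta4 (6.36 CPM per kb) followed. Libraries of Gstm1, at 9.01 to 28.9 CPM per kb, overlapped those of each of the other 5, while Mgst1 and Gstm2 lay above Gstt1, Gstm5 and Gsta4. Gstt2 at 0.592 ± 0.114 and Gstt3 at 0.0268 ± 0.0269 CPM per kb stood apart at the low end. In the B16 controls Gstp1 at 852 ± 118 and Gstm1 at 149 ± 28.5 CPM per kb stood apart at the top. Gstt1 (50.2), Gstm2 (46.6), Gstm5 (45.5) and Mgst1 (39.7 CPM per kb) could not be ordered. Gsto1 followed at 19.6 ± 4.94 CPM per kb, Gstt2 at 4.57 ± 0.700 overlapped Gstt3 at 4.30 ± 0.888, and Gsta4 came last at 1.25 ± 0.841 CPM per kb.

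The lines were compared in the control libraries, as a description, since control levels were among the values in view when the genes were selected. Line and table coincide, so a line cannot be told apart from any difference in handling. In one fit of all 18 libraries, 8 of 10 members were called by edgeR at an adjusted p under 0.05, 2 higher and 6 lower in Hepa1-6. Over all genes 59.4% were called, 29.6% higher and 29.8% lower. Libraries of the lines did not overlap for 9 of 10 members, against 70.3% of all genes, and overlapped for Gstp1.

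All theta genes were lower in Hepa1-6. On a common scale Gstt2 stood at 1.09, 1.32 and 1.60 CPM in Hepa1-6 controls, against 9.81, 9.03 and 12.1 CPM in B16 controls (log2 fold change -2.94, SE 0.414). Gstt1 stood at 7.00, 14.6 and 12.5 CPM in Hepa1-6, against 41.2, 31.3 and 83.9 CPM in B16 (-2.20, SE 0.452). Gstt3 had 3 counts in the Hepa1-6 controls and 492 in the B16 controls, 0.597% per read sequenced (exact 95% interval 0.123% to 1.76%, counting error only). In each of the 3 theta genes every Hepa1-6 control lay below every B16 control.

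The mu genes were lower in Hepa1-6 as well. Gstm1 stood at 11.6, 36.4 and 37.3 CPM in Hepa1-6, against 191, 156 and 229 CPM in B16 (log2 fold change -2.75, SE 0.419). Gstm5 differed by -2.22 (SE 0.350) and Gstm2 by -1.03 (SE 0.211). Gsto1 went the other way, at 320, 316 and 358 CPM in Hepa1-6, against 17.3, 29.0 and 23.3 CPM in B16 (3.84, SE 0.345). Gsta4 was higher in Hepa1-6 too, at 2.07, 9.87 and 6.71 CPM, against 0.296, 1.88 and 1.47 CPM in B16 (2.35, SE 0.730). Without the Hepa1-6 control numbered 2 its difference was 1.88, and edgeR then called 7 members. Gstp1 (-0.15, SE 0.330) and Mgst1 (-0.55, SE 0.404) were the 2 members not called. The sign of Gstp1 turned to 0.15 without the Hepa1-6 control numbered 1. Mgst1 was lower in every Hepa1-6 control (28.5, 35.2 and 31.2 CPM) than in any B16 control (51.4, 40.7 and 47.0 CPM), and a fit of the control libraries alone called it.

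**Figure D5:**
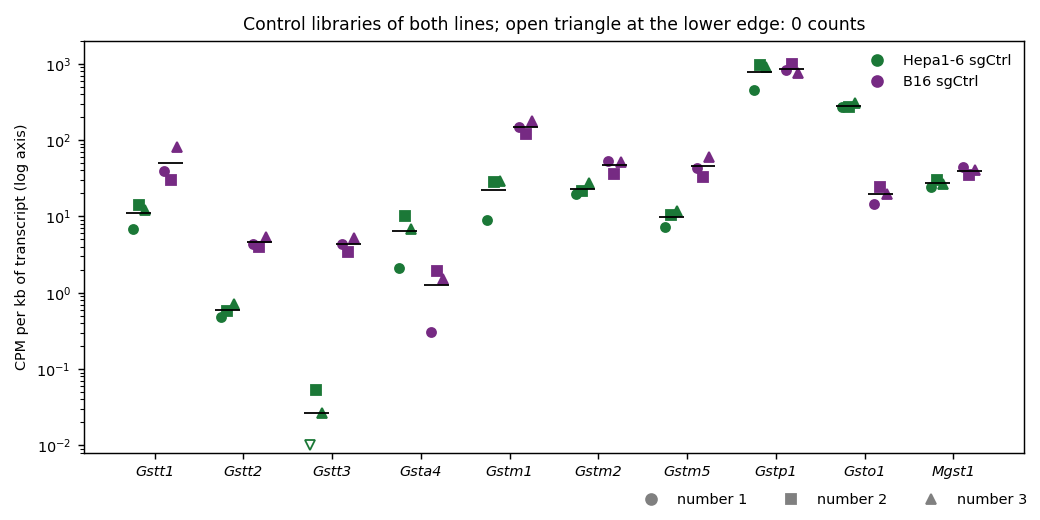
CPM per kb of transcript on a log axis for the 10 genes in the 3 sgCtrl libraries of Hepa1-6 (green) and of B16 (purple); point shapes are replicate numbers, black lines means, and the open triangle marks a library with 0 counts. Gsto1 and Gsta4 lie higher in Hepa1-6, the theta and mu genes higher in B16, and Gstp1 overlaps.

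A list of other transferase genes and relatives such as Alox5ap and Gstcd, outside the 10, was fitted in the same contrast. The list was chosen with earlier results of these data known, so its counts are a description from which nothing is read. Ptges, among others, passed the low-count filter through Hepa1-6 alone. Of 21 listed, 17 were tested, and edgeR called 14, which is 82.4% beside 59.4% of all genes. Of these, 4 were higher and 10 lower in Hepa1-6, beside 29.6% and 29.8% of all genes, with a median log2 fold change of -2.55 beside 0.00333 over all genes. Higher in Hepa1-6 were Ptges (1054 counts in Hepa1-6 controls, 2 in B16 controls), Hpgds (3219 and 24), Gstp3 (72 and 2) and Mgst2 (193 and 8), of which Ptges and Hpgds encode prostaglandin synthases. Lower were the alpha genes Gsta3 (-7.57), Gsta1 (-6.81) and Gsta2 (-3.75), and the mu genes Gstm7 (-3.71), Gstm4 (-2.83) and Gstm6 (-2.69). Gstp2 (-4.74), Alox5ap (-3.62), Gstz1 (-2.55) and Mgst3 (-1.38) were lower too. The Gsta2 call was lost without the Hepa1-6 control numbered 1 or 3 or the B16 control numbered 2. That of Mgst3 (adjusted p = 0.0431) was lost in 9 of 18 fits that each left out 1 library, up to 0.151 without the B16 control numbered 3.

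Part of the spread within groups followed the replicate number. In Hepa1-6 the libraries numbered 1 lay below all others for Gstp1 (352.8 to 398.9 CPM, against 590.6 CPM and more in the other numbers) and for Gstm5 (6.77 to 8.70 CPM, against 9.76 CPM and more). That made 2 of 9 tested members apart, where 32.5% of all genes were apart. No member was apart for the Hepa1-6 numbers 2 and 3, where 1.98% and 3.89% of all genes were. In B16 Gstt1 stood at 41.2 to 57.1 CPM in number 1, 23.9 to 36.7 CPM in number 2 and 61.6 to 84.4 CPM in number 3. The B16 libraries numbered 1 were also apart for Mgst1 (above) and Gsto1 (below), those numbered 2 for Gsto1 (above) and Gstm5 (below), and those numbered 3 for Gstp1 (below). Over all genes 21%, 26.5% and 9.49% were apart in the B16 numbers 1, 2 and 3. Gstt2 was apart by number in neither line.

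Genes most like Gstt2 were ranked by Pearson correlation of log2 CPM over the 9 libraries of a line, which share depth and replicate number, so these are descriptions. In Hepa1-6 they were Gfod1 (0.976), Snx10 (0.972) and Neat1 (0.972) among 9805 genes with a mean of at least 5 CPM. Neat1, a long noncoding RNA, had 0 counts in all 6 knockout libraries, which allows up to 0.0201 CPM over the group, against a mean of 178.5 CPM in the controls. Since the labels do not state whether the knockouts under both guides share a parent, agreement of the guides, for Gstt2 too, is not counted as independent evidence. Gfod1 averaged 29.8 CPM in knockout and 57.8 CPM in control libraries, and Snx10 13.9 and 21.7 CPM. In B16 they were Galnt12 (0.919), Dmac2 (0.896) and Echdc2 (0.896) among 10255 genes, of which Galnt12 averaged 9.04 CPM in knockout and 5.31 CPM in control libraries. Dmac2 averaged 8.15 and 5.08 CPM, and Echdc2 12.4 and 8.88 CPM.

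Genes that make, recycle and use glutathione, or that respond to NRF2, were read from lists that held 87 genes, without the list of Gstt2 neighbours. None was called between knockout and control by edgeR, of 72 tested in Hepa1-6 and 68 in B16. At an unadjusted p under 0.05 there were 11 of 72 in Hepa1-6, beside 1383 of all 12458 genes (11.1%). In B16 there were 2 of 68, beside 291 of all 12347 genes (2.36%). DESeq2 called 3 in Hepa1-6, namely Mafk, Cbr3 and Nfe2l2, and 0 in B16. No list gene was called for a difference of effect between lines (0 of 80), where DESeq2 called 1, Nfe2l2. There 7 of 80 had an unadjusted p under 0.05, beside 970 of all 14044 genes (6.91%). Between the control libraries of the lines 49 of 80 were called (24 higher and 25 lower in Hepa1-6), which is 61.3% beside the 59.4% of all genes.

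Among 22 NRF2 targets and regulators tested in Hepa1-6, the smallest p was that of Mafk, a small MAF partner of NRF2. Mafk averaged 73.2 ± 3.02 CPM with sgNcor1-1 and 72.6 ± 8.69 CPM with sgNcor1-2, against 129 ± 20.6 CPM with sgCtrl (log2 fold change -0.82, SE 0.144, adjusted p = 0.0767). All its knockout libraries lay below the controls. Cbr3, a carbonyl reductase gene, averaged 14.3 ± 2.54 and 15.1 ± 4.22 CPM with the Ncor1 guides and 8.06 ± 0.487 CPM with sgCtrl (0.87, SE 0.240, adjusted p = 0.229). Nfe2l2, which encodes NRF2, averaged 136.2 ± 13.6 and 136.5 ± 15.8 CPM with the Ncor1 guides and 194.7 ± 24.6 CPM with sgCtrl (-0.51, SE 0.143, adjusted p = 0.230). Its knockout libraries (120.7 to 152.4 CPM) all lay below the controls (180.4 to 223.1 CPM). Other genes of the list went the other way, with all knockout libraries above the controls. These were Cbr3 (10.2 to 17.8 CPM, against 7.71 to 8.61 CPM) and Me1 (572.8 to 766.5 CPM, against 366.1 to 548.9 CPM). Over all genes 9.13% did not overlap. In B16 Nfe2l2 had a log2 fold change of 0.23 (SE 0.154), and its effects differed between the lines by -0.74 (SE 0.212, adjusted p = 0.366). The list's median log2 fold change was 0.105 in Hepa1-6 and -0.0956 in B16. In B16 the smallest p values belonged to Nqo1, a quinone reductase (-0.42, SE 0.178, adjusted p = 1), and Cbr1 (0.40, SE 0.196, adjusted p = 1).

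The remaining lists held no call either. In Hepa1-6 the median log2 fold change was 0.299 over 13 other transferases and relatives and -0.196 over 14 genes of glutathione synthesis and recycling. It was 0.169 over 12 genes of peroxide and thiol handling, and 0.0587 over 11 of conjugate export. In B16 the medians were -0.0299, -0.0667, 0.0693 and 0.0137 over 14, 16, 11 and 8 genes. The Hepa1-6 transferases with the smallest p were Gstm4 (0.64, SE 0.367, adjusted p = 0.556) and Gstp2 (-1.07, SE 0.629, adjusted p = 0.570). For synthesis and recycling they were Ggct, which releases 5-oxoproline (-1.15, SE 0.531, adjusted p = 0.469), and Chac2, which degrades glutathione (0.32, SE 0.155, adjusted p = 0.492). For peroxides they were Prdx6 (0.51, SE 0.167, adjusted p = 0.316) and Gpx2 (-1.88, SE 0.870, adjusted p = 0.473). For export, the transporter gene Abcc4 had -0.62 (SE 0.246, adjusted p = 0.396). In B16 Gsta3, the one listed transferase with an unadjusted p under 0.05, averaged 45.4 ± 23.4 CPM with sgNcor1-1 and 66.8 ± 24.3 CPM with sgNcor1-2, against 121 ± 67.9 CPM with sgCtrl (-1.14, SE 0.424, adjusted p = 1), and its libraries overlapped. Hpgds in B16 had 2.68 (SE 1.63, adjusted p = 1). The other B16 genes with the smallest p of their lists had values of -0.38 (SE 0.210) for Gclm, -0.36 (SE 0.294) for Ggct, 0.52 (SE 0.496) for Gpx1 and 0.15 (SE 0.182) for Gpx8. For the aminoacylase genes they were 0.16 (SE 0.245, Acy3) and -0.15 (SE 0.388, Acy1).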

How the data were processed

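The authors deposited 1 table of expected counts per gene symbol for each line. The submitters' processing notes name RSEM 1.2.8, Bowtie2 2.2.5, Trim Galore 0.6.7 and FastQC 0.12.1, and the build mm10. RSEM shares ambiguous reads among genes, and 7.87% of deposited values in Hepa1-6 and 7.19% in B16 were not whole; all were rounded. The gene annotation and strand setting are not given in the sources used here, so reads of overlapping genes (Gstm5 and 4933431E20Rik lie on opposite strands) cannot be told apart.

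Counts were analysed with edgeR 4.0.16 in R 4.3.3: filterByExpr, TMM scaling, robust quasi-likelihood fits, 1 mean per group. Each line was fitted alone (9 libraries, 12458 genes in Hepa1-6 and 12347 in B16). All 18 libraries were fitted together (14044 genes) for the comparison of lines. Knockout is the mean of both guides. Adjusted p-values (Benjamini-Hochberg) cover every tested gene of a fit, with 0.05 as the threshold. CPM and log2 fold changes were computed from the deposited counts. Of the members, 9 passed the low-count filter in each line (not Gstt3 in Hepa1-6, not Gsta4 in B16) and 10 in the joint fit. Scripts were tested on simulated counts. Between libraries of a group chi-square was at least 10.97 (Hepa1-6) or 6.363 (B16) times its degrees of freedom, beyond sampling noise.

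Members were fitted with all other genes, and no test is read from their p-values. The members and all lists were chosen with earlier results of these data known. Named genes were every member, the called or otherwise up to 2 genes with the smallest p of each list, tested neighbours, the 3 genes most like Gstt2 per line, and Ncor1; 1 listed gene and the theta coding sequences are not reported here. Nfe2l2 and Me1 in the Hepa1-6 knockout comparison and Gstt4 and the marker genes fell outside this rule and were named after their values were seen. Between the lines, genes were named for the members and the list of other transferases and relatives only. Libraries of the same replicate number correlated in their deviations from group means by 0.52 to 0.79 in B16, so the numbers were taken to pair them. The reported B16 fits nevertheless hold no term for the number, so their SE include spread between numbers. In Hepa1-6 the correlation was 0.76 to 0.94 between the Ncor1 guides. Between control and knockout libraries it was -0.017 to 0.59, with 0.59 and 0.58 in number 1, and the numbers were not taken to pair them. The reported Hepa1-6 fits treat the 6 knockout libraries as independent, so their SE and p-values do not account for the correlation between the guides. Alternatives were DESeq2 1.42.0, other scaling and filters, a replicate block, and leaving out libraries; 1 more, the block across lines, was added after seeing the data.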

Additional observations from a re-analysis of the deposited data

Results flagged for a closer look

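Gstt2 drew attention because the knockout effects of the lines pointed in opposite directions. Every Hepa1-6 knockout library lay below its controls and every B16 knockout library above them. On plain totals the B16 groups overlapped, with 12.67 and 12.70 CPM in the knockout libraries numbered 1 and 12.89 CPM in the control numbered 3. The effect in Hepa1-6 minus that in B16 was -6.013 on the log2 scale. No test is read from this difference, since the gene was chosen with these values known. In Hepa1-6 it rests on 5 counts in 6 knockout libraries and 79 in 3 control libraries. The Dixon check on single libraries was not applied, as every group has 3 libraries.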

How the results depend on the processing

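The log2 fold change of Gstt2 in Hepa1-6 was -5.54 by DESeq2 and -6.36 without the libraries numbered 1 (adjusted p = 0.0666), and -6.15 to -5.01 when 1 library was left out. Its call, from which nothing is read, was kept in 3 of those 9 fits. The single guides gave -5.03 to -3.83 for sgNcor1-1 and -7.88 to -5.78 for sgNcor1-2, and the difference between lines -6.83 to -5.75. In B16 the Gstt2 value stayed between 0.66 and 0.86. The count of list genes called in Hepa1-6, 0 in the reported fit, was 3 by DESeq2 and 5 with the replicate block (Mafk, Cbr3, Nfe2l2, Abcc4 and Ggct). For sgNcor1-1 alone it was 1 by DESeq2, for sgNcor1-2 alone 1 by DESeq2 and 1 with the block, and for the difference between lines 1 by each. Mgst1 in Hepa1-6 was -0.93 with the block (adjusted p = 0.0454) and Ncor1 -0.63 (adjusted p = 0.0453). Hepa1-6 replicate numbers were not shown to pair control with knockout libraries. Over all genes the Hepa1-6 knockout calls were 25, against 344 by DESeq2, 525 with the block and 6 to 19 with 1 library left out. In B16 they were 4, against 43, 48 and 1 to 3, and 17 with no filter on low counts. For the single guides in Hepa1-6 they were 6 and 10, against 131 and 152 by DESeq2, and for the difference between lines 25, against 103 by DESeq2 and 236 with the block. In B16 the block changed no call of a member or listed gene. Between the lines 7 to 9 members were called under all alternatives, from which nothing is read. Gstp1 there turned to 0.14 without the Hepa1-6 libraries numbered 1, and spanned -0.30 to 0.15 with 1 library left out. Mgst1 was called with all 9 libraries of each line (adjusted p = 0.00173), Gsta2 was lost without the libraries numbered 1 (0.0796), and Mgst3 without the filter (0.063). Susd2 in Hepa1-6 was -0.16 with the block, -0.55 without the libraries numbered 1 and -0.28 to 0.26 with 1 library left out. Ddt spanned -0.012 to 0.42 in Hepa1-6. In B16 Ddt spanned -0.33 to 0.0045, Ncor1 -0.14 to 0.020, Gpx1 -0.059 to 0.73, Mif -0.037 to 0.12, Smarcb1 -0.48 to 0.11 and Mmp11 -0.23 to 0.33. A Spearman ranking of genes most like Gstt2 kept 0 of 3 in Hepa1-6 and 2 of 3 in B16. The summed B16 control level was 1162 CPM on plain totals. The cause of these shifts was not tested. Depth limits Gstt2 and Gstt3 in Hepa1-6 and Gsta4 in B16, where a few counts per library carry each value.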
